A study of Saccharomyces cerevisiae with 10 samples.

Results

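The level of each transcript in the temperature-sensitive budding yeast strain cdc34-3 (strain name py24) was set against its level in 4 other temperature-sensitive strains: cdc53-1 (py175), cdc4-3 (py187), skp1-11 (labelled W303) and skp1-25 (py1374). Each strain gave 1 Affymetrix array after 1 h at 35 °C, the non-permissive temperature, and 1 array at room temperature (25 °C), the permissive one. The medium was YPDA throughout, which is rich in glucose and supplemented with adenine. cdc34-3 therefore supplied 2 of the 10 arrays and the other strains 8, and what was compared was the standing level, not the change on warming. A gene was placed outside the range when both cdc34-3 arrays lay above the highest, or both below the lowest, of the 8 other arrays. This held for 189 of 5449 genes, 115 above and 74 below. All 5 strains carry a defect in the same ubiquitin ligase, and no strain with that ligase intact was analysed here. Each allele came with its own strain name, so effects of the allele and of the strain background cannot be told apart. The labels give no sign of repeated cultures, and p-values therefore measure the spread between strains.

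The ligase is the SCF, which joins ubiquitin to regulators of the cell cycle and of metabolism and so sends them to the proteasome. Cdc34 is its ubiquitin-conjugating enzyme, which carries the ubiquitin. Cdc53, a cullin, is the scaffold on which the complex is built. Skp1 links the scaffold to exchangeable F-box proteins. Cdc4 is the F-box protein for phosphorylated substrates such as Sic1, the inhibitor of the kinase that starts S phase. Cells that lack Cdc34 or Cdc4 function stop before DNA replication with several buds, because Sic1 persists. Cdc34, Cdc53 and Skp1 serve SCF complexes of many kinds, whereas Cdc4 serves those complexes that use it as the F-box protein.

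All values below are log2 levels as deposited, and differences are cdc34-3 minus the mean of the 4 other strains, each strain taken as the mean of its 35 °C and 25 °C arrays. Array medians ran from 10.98 to 11.15, with 11.08 at 35 °C and 11.02 at 25 °C in cdc34-3. Across 5449 genes the cdc34-3 arrays correlated with r = 0.970 with each other and with r between 0.927 and 0.974 with arrays of other strains, so neither stood apart. The median difference over all genes was 0.03, the median of its size 0.12, and 3090 genes had a difference above 0. The cdc34-3 arrays showed high transcripts of genes that haploid cells of mating type a express. STE2, which encodes the receptor for alpha factor, was at 12.26 at 35 °C and 13.05 at 25 °C, and the pheromone gene MFA2 at 12.60 and 13.07. The alpha-type receptor gene STE3 stood at 7.65 and 5.93. Each array measured a bulk culture, in which fewer cells of a kind and less RNA per cell cannot be told apart.

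Genes of the SCF itself are given first. A temperature-sensitive allele acts on the protein, so these transcripts do not check the label. CDC34 stood at 10.41 at 35 °C and 10.54 at 25 °C in cdc34-3, against a lowest value of 10.33, a median of 10.86 and a highest of 11.37 in the 8 other arrays. Its difference was -0.34 ± 0.24 (standard error, SE, of the limma fit with 1 strain against 4, as in all differences with ± below), within the spread of the other strains. At 35 °C alone, the CDC34 array of cdc34-3 lay below those of all 4 other strains, with a difference of -0.61, against -0.08 at 25 °C. Of all 5449 genes, 743 lay below all 4 other strains at 35 °C.

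The other core subunits overlapped the other strains as well. CDC53 stood at 11.35 and 11.94 at 35 °C and 25 °C, and its difference was -0.11 at 35 °C and 0.30 at 25 °C, where it lay above all 4 other strains. SKP1 had a difference of -0.20 ± 0.32, and of -0.03 without skp1-25. At 35 °C alone its difference was -0.34 and the cdc34-3 array lay below those of all 4 other strains. CDC4 had a difference of 0.13 ± 0.17 (0.06 without cdc53-1), and at 25 °C it too lay above all 4 other strains. Such places were common: of all 5449 genes, 1248 lay above all 4 at 25 °C and 743 below all 4 at 35 °C. HRT1, which encodes the RING subunit, had a difference of -0.09 ± 0.15. UBC12 encodes the conjugating enzyme for Rub1, the ubiquitin-like protein that is attached to Cdc53 and activates it. UBC12 stood at 9.47 at 35 °C and 10.20 at 25 °C in cdc34-3, against a lowest value of 8.97, a median of 9.31 and a highest of 9.79 in the other arrays. The difference was 0.48 ± 0.13 (limma, unadjusted p = 0.0138, adjusted p = 1.000), and the cdc34-3 array was above all 4 others at each temperature, though not above all 8 at 35 °C. Of all 5449 genes, 398 were above all 4 others at both temperatures. RRI1 encodes the protease subunit that removes Rub1 from Cdc53. It was the 1 member of 12 measured SCF and Rub1 genes outside the range, above which 2.11% of all genes lay. It stood at 8.93 and 9.01 in cdc34-3 against 8.60 to 8.83 elsewhere (median 8.74). Its difference was 0.22 ± 0.12, and it was inside the range after quantile normalization. The list of 12 genes had 6 differences above 0 and 6 below, and a median of -0.02. Its 2 temperatures ran opposite ways, with 9 of 12 below 0 and a median of -0.14 at 35 °C, and 8 of 12 above 0 and a median of 0.14 at 25 °C.

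No gene passed the test across the genome. limma on the strain means called 0 of 5449 genes (0%) at an adjusted p of 0.05, and the smallest adjusted p was 1.000. At an unadjusted p under 0.05 it listed 81 genes, 52 higher and 29 lower in cdc34-3. Fits with strain as a random block and with strain left out also called 0, with 59 and 253 genes at an unadjusted p under 0.05. The lone cdc34-3 mean was assumed to vary like the other strain means, and for a single gene an exact permutation of 1 strain against 4 cannot give a p below 0.2. What follows is therefore a description of levels and of ranges. The range rule used these same values, so the differences of the genes it found are not tests.

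The genes above the range made up 2.11% of those measured and the genes below it 1.36%. The same rule was applied to each strain in turn. It found 189 genes outside the range for cdc34-3, against 387 for cdc4-3, 495 for skp1-11, 532 for skp1-25 and 601 for cdc53-1. cdc34-3 was thus the strain with the fewest such genes, and the difference between the strains' counts was not tested. The rule needs both arrays of a strain on the same side. Deviations from the mean of all strains at each temperature correlated with r = 0.43 between the cdc34-3 arrays. In the other strains this r ran from 0.58 to 0.77. Whether this r bears on the counts was not tested. With the same limma test of 1 strain against 4, cdc34-3, cdc4-3 and skp1-25 had 0 genes called, skp1-11 had 20 and cdc53-1 had 25.

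**Figure D1:**
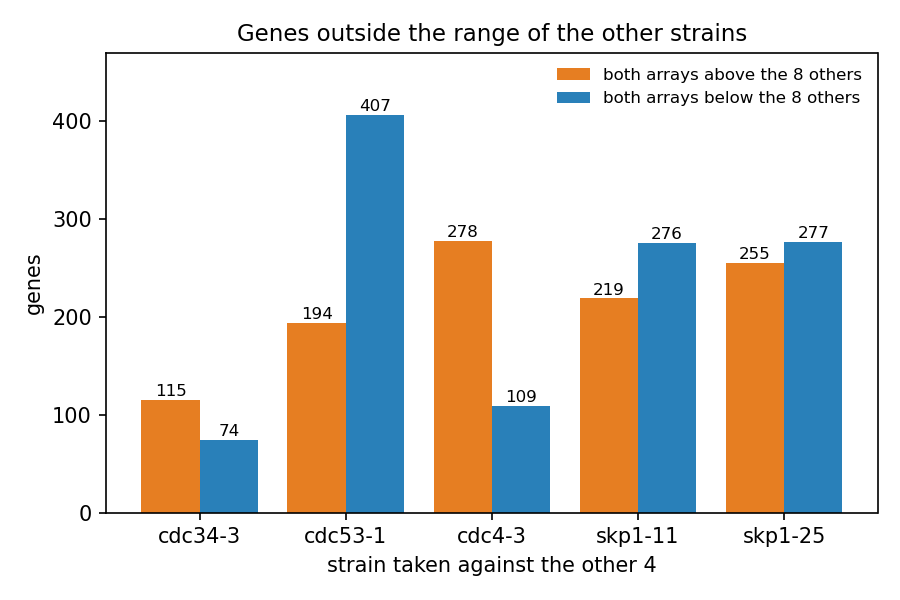
Number of genes (y axis) with both arrays of a strain above (orange) or below (blue) all 8 arrays of the other strains, for each of the 5 strains (x axis). cdc34-3 has 115 above and 74 below, the lowest total of the 5 strains.

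Most of the genes outside the range lay only just beyond it. The median gap between the nearer cdc34-3 array and the nearest other array was 0.06 both above and below the range, and it was under 0.1 for 84 of the 115 genes above and 55 of the 74 below. The median difference was 0.32 above and -0.37 below, and a difference of at least 1 in size was reached by 8 genes above and 7 below. Over all genes, 78 had a difference of at least 1, and 63 of these lay inside the range. By mean level over all arrays, 51 of the 115 genes above (44.3%) and 46 of the 74 below (62.2%) were under the median gene (11.03). Only 1 gene above, FMT1, and 1 below, YJL136W-A, cleared the range by at least 0.5. VPS13, TVP38 and EMP24 lay just outside, by 0.001, 0.001 and 0.003, and SWD2, SCS2 and ALG8 lay just inside, by 0.002, 0.002 and 0.003.

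The 15 genes named first on each side of the range are those with the largest differences among genes whose higher mean, of cdc34-3 or of the other strains, exceeded the median gene. That filter uses the difference itself: 6 of the 15 above passed through the cdc34-3 mean alone and 5 of the 15 below through the mean of the other strains alone, so their order is no ranking of well-expressed genes. The first of those above was CDC21. It encodes thymidylate synthase, which makes the thymidine nucleotide for DNA and is transcribed at the G1/S boundary. CDC21 stood at 11.74 at 35 °C and 11.36 at 25 °C in cdc34-3, against a lowest value of 10.24, a median of 11.02 and a highest of 11.30 in the 8 other arrays. The difference was 0.59 ± 0.17, or 1.51-fold. HCM1 encodes a forkhead transcription factor of S phase. It stood at 11.66 and 11.30 in cdc34-3 at 35 °C and 25 °C, against 9.99 to 11.26 elsewhere (median 11.12), a difference of 0.51 ± 0.24. The separation was wide at 35 °C and narrow at 25 °C, where the cdc34-3 array cleared the highest other array by 0.04. After centring each array on its median, HCM1 was no longer outside the range.

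UNG1 encodes uracil-DNA glycosylase, which removes uracil from DNA, the base that accumulates when thymidine nucleotide runs short. It stood at 11.15 and 11.21 in cdc34-3 at 35 °C and 25 °C, against 10.42 to 10.98 elsewhere (median 10.77). The difference was 0.44 ± 0.15 and nearly equal at the 2 temperatures, 0.45 at 35 °C and 0.43 at 25 °C. PRI1, which encodes a subunit of DNA primase, was also above the range, with 10.74 and 10.75 in cdc34-3 against 10.06 to 10.68 elsewhere. Its difference was 0.29 ± 0.13, and it was inside the range after median centring.

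CIN2 encodes a protein needed for the folding of tubulin. It stood at 11.18 and 10.88 in cdc34-3 at 35 °C and 25 °C, against 9.91 to 10.82 elsewhere (median 10.62), a difference of 0.54 ± 0.18. TAF6, a subunit of the general transcription factor TFIID and of SAGA, stood at 11.81 and 11.61, against 10.94 to 11.49 elsewhere (median 11.22), a difference of 0.48 ± 0.20. RSF2, a zinc finger protein that acts on genes for growth on glycerol, had a difference of 0.41 ± 0.13, with 11.41 and 11.09 in cdc34-3 and 10.65 to 10.99 elsewhere. Each of these 3 genes kept its place above the range after median centring and after quantile normalization.

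The other genes of the 15 have varied roles. PMI40, which makes mannose 6-phosphate for protein glycosylation and the cell wall, stood at 13.50 and 13.27 in cdc34-3 at 35 °C and 25 °C, against 12.61 to 13.25 elsewhere (median 12.88). Its difference was 0.46 ± 0.18. ELO1, a fatty acid elongase gene, stood at 13.44 and 13.30, against 12.44 to 13.28 elsewhere, a difference of 0.39 ± 0.26. TCB2, which tethers the endoplasmic reticulum to the plasma membrane, had a difference of 0.43 ± 0.31 and was inside the range after quantile normalization. SPS19, a peroxisomal enzyme of fatty acid breakdown, had a difference of 0.38 ± 0.20. APE1, a vacuolar aminopeptidase, stood at 11.19 and 11.27, against 10.55 to 11.03 elsewhere, and TVP15, a Golgi membrane protein, at 12.34 and 12.39, against 11.58 to 12.25. DSE2, a daughter cell protein that helps mother and daughter separate, had a difference of 0.39 ± 0.19 and was inside the range under both rescalings. YNL046W and YER152C complete the 15 with differences of 0.47 ± 0.21 and 0.39 ± 0.14.

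Further genes above the range were picked for mention after their values were seen. Several act at the spindle and on chromosomes: DAD1 (0.36 ± 0.12) and DAD2 (0.48 ± 0.16) encode subunits of the ring that couples kinetochores to microtubules, BIM1 (0.42 ± 0.31) a microtubule plus-end protein and TUB1 (0.35 ± 0.16) alpha-tubulin. BIM1 was inside the range after median centring. DPB3 (0.47 ± 0.36), a subunit of DNA polymerase epsilon, and SLD2 (0.49 ± 0.37), which acts at replication origins, had an SE over 0.3. No list of such genes was drawn up, so how common they are among the 115 was not assessed. FMT1, the mitochondrial methionyl-tRNA formyltransferase gene, cleared the range by the widest margin, 0.57. It stood at 6.29 and 6.37 in cdc34-3 at 35 °C and 25 °C, against 4.09 to 5.72 elsewhere (median 5.13), all low levels, and was inside the range after quantile normalization.

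The largest positive differences of genes outside the range were in 2 transporter genes with low to moderate levels. OPT2, an oligopeptide transporter gene, stood at 10.25 and 9.68 in cdc34-3 at 35 °C and 25 °C, against a lowest value of 6.89, a median of 8.28 and a highest of 9.54 elsewhere. Its difference was 1.68 ± 0.95, or 3.21-fold. RSB1, which exports sphingoid bases, stood at 7.15 and 7.38, against 4.50 to 6.88 elsewhere (median 5.66), a difference of 1.58 ± 0.67. After quantile normalization its difference was 1.35 and it was inside the range. As deposited, neither set of values overlapped, yet the SE was more than 0.6 in both because the other strains spread over more than 2 log2 units.

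**Figure D2:**
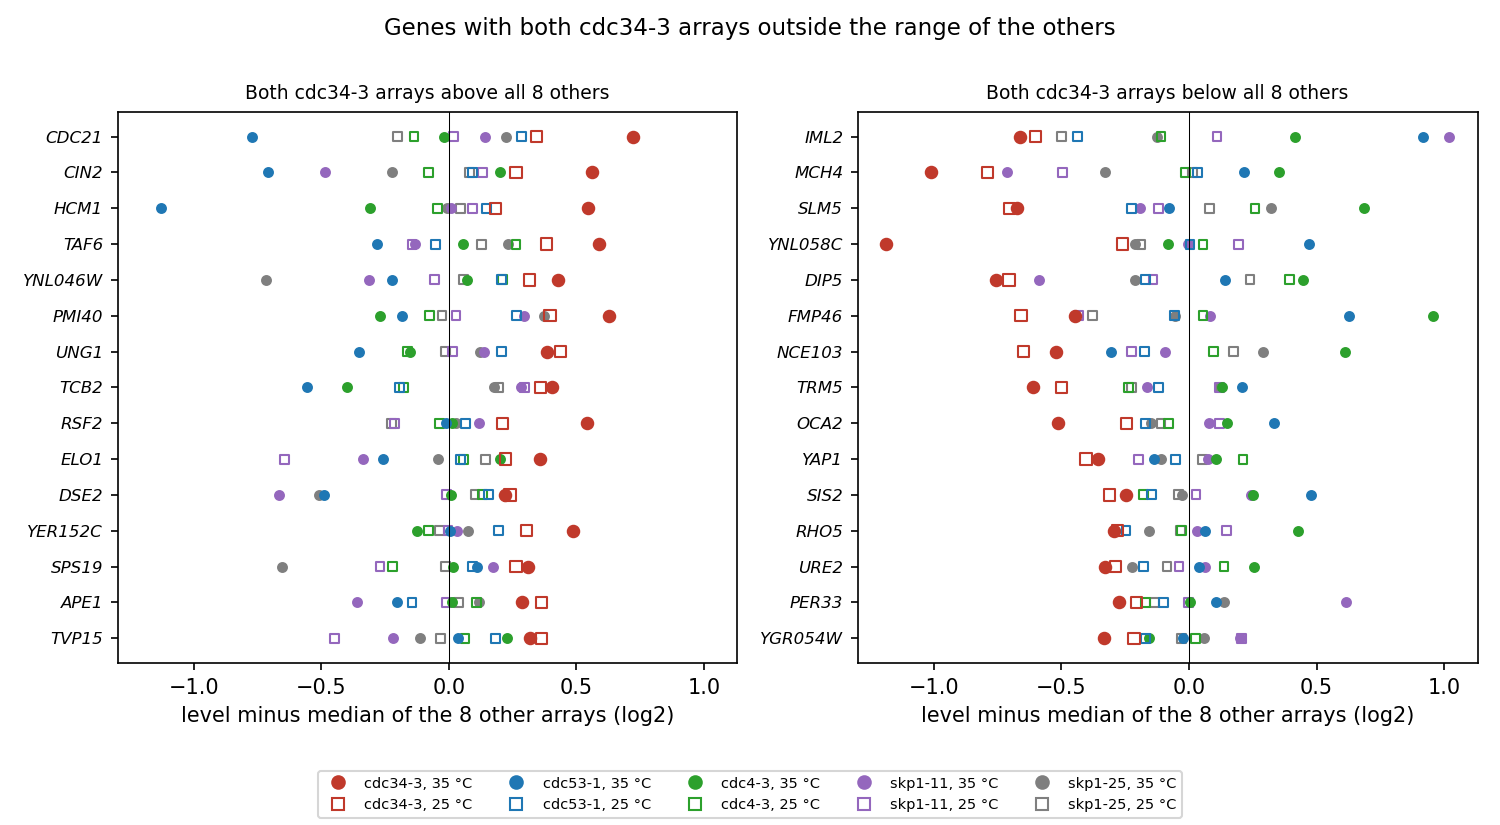
Level of each gene (rows) on each array minus the median of the 8 other arrays (x axis, log2), for the 15 genes above (left) and 15 below (right) the range with the largest differences. Points are single arrays, filled for 35 °C and open for 25 °C, and the red cdc34-3 points lie outside all others in every row, by 0.06 for CDC21 and 0.45 for SLM5.

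Of the 15 genes named below the range, 3 had differences close to -0.8, and all 3 averaged under the median gene in cdc34-3. SLM5 encodes the mitochondrial asparaginyl-tRNA synthetase. It stood at 10.27 at 35 °C and 10.24 at 25 °C in cdc34-3, against a lowest value of 10.72, a median of 10.94 and a highest of 11.63 in the 8 other arrays, and the gap of 0.45 was wide beside the median gap. Its difference was -0.78 ± 0.29, or 1.72-fold. IML2, which takes part in clearing protein inclusions, stood at 10.46 and 10.52, against 10.62 to 12.14 elsewhere (median 11.12), a difference of -0.79 ± 0.33. MCH4, which resembles monocarboxylate carriers, stood at 10.30 and 10.52, against 10.60 to 11.66 elsewhere (median 11.31), a difference of -0.78 ± 0.33, and was inside the range after median centring.

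TRM5, which encodes a methyltransferase that modifies transfer RNA next to the anticodon, had the smallest error beside its difference among these genes. It stood at 10.46 and 10.57 in cdc34-3 at 35 °C and 25 °C, against 10.84 to 11.28 elsewhere (median 11.07). Its difference was -0.54 ± 0.12. The difference was larger at 35 °C, -0.69, than at 25 °C, -0.38.

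DIP5, URE2 and NCE103 have separate roles. DIP5, the permease for glutamate and aspartate, stood at 11.11 and 11.16 in cdc34-3 at 35 °C and 25 °C, against 11.28 to 12.31 elsewhere (median 11.87), a difference of -0.74 ± 0.30. URE2 encodes the protein that holds the nitrogen regulator Gln3 in the cytoplasm. It stood at 11.48 and 11.52, against 11.59 to 12.07 elsewhere, a difference of -0.30 ± 0.17. NCE103, the carbonic anhydrase gene, stood at 13.08 and 12.95, against 13.30 to 14.21 elsewhere (median 13.60), a difference of -0.63 ± 0.28. By the range rule that picked these 3 genes, their cdc34-3 values do not overlap those of the other strains. The nitrogen catabolite list, described further on, had 0 members below the range.

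YAP1 encodes the main transcription factor of the response to oxidants and drugs. It stood at 11.20 and 11.15 in cdc34-3 at 35 °C and 25 °C, against 11.36 to 11.77 elsewhere (median 11.56), a difference of -0.37 ± 0.15. SNQ2, a drug efflux pump that Yap1 activates, was below the range with a difference of -0.23 ± 0.17. In the list of 35 measured multidrug efflux and oxidative genes, these 2 were below the range and RSB1 above it. Over all genes, 1.36% lay below and 2.11% above. The list median was 0.03 (-0.01 without skp1-11). YAP6 and YAP7, relatives of YAP1 picked after their values were seen, were below the range too, with differences of -1.13 ± 0.65 and -0.30 ± 0.14.

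The other genes of the 15 below the range were YNL058C, the mitochondrial protein gene FMP46, the phosphatase-like gene OCA2, SIS2, the GTPase gene RHO5, the membrane protein gene PER33 and YGR054W, which encodes a relative of a translation initiation factor. Their differences ran from -0.75 ± 0.20 in YNL058C to -0.29 ± 0.17 in YGR054W, which was inside the range under both rescalings. YNL058C stood at 10.86 at 35 °C and 11.78 at 25 °C in cdc34-3, against 11.83 to 12.51 elsewhere (median 12.04). Its 2 cdc34-3 values were far apart, and at 25 °C it cleared the lowest other array by 0.05. YNL058C and OCA2 are neighbours on chromosome XIV.

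Dimmer genes below the range included members of the DNA damage, glucose repression and stress lists. HUG1, a small inhibitor of ribonucleotide reductase that DNA damage induces, stood at 7.96 and 7.82 in cdc34-3 at 35 °C and 25 °C, against 8.37 to 10.11 elsewhere (median 9.08), a difference of -1.25 ± 0.57. MAG1, a DNA glycosylase for alkylated bases, stood at 9.79 and 9.88, against 10.02 to 10.74 elsewhere, a difference of -0.51 ± 0.21. These were 2 of 17 measured DNA damage genes, of which 0 lay above the range. Over all genes, 1.36% lay below the range and 2.11% above it. The list median was 0.05 (-0.01 without cdc53-1). RNR4, which encodes a subunit of ribonucleotide reductase and belongs to the same list, had a difference of 0.17 ± 0.12 and was inside the range.

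ADH2 and JEN1, which glucose represses, lay below the range in cdc34-3 in glucose medium. ADH2, which oxidises ethanol, stood at 9.96 and 10.13 at 35 °C and 25 °C, against 10.30 to 11.39 elsewhere (median 10.70), a difference of -0.68 ± 0.23. JEN1, the lactate permease gene, stood at 9.15 and 8.87, against 9.19 to 10.51 elsewhere, a difference of -0.74 ± 0.42. They were 2 of 32 measured genes of hexose transport and glucose repression, against 1.36% of all genes below the range. Of the 32, 16 had a difference above 0 and 16 below (8 and 24 after quantile normalization). RTN2, a reticulon gene of the general stress list, stood at 9.67 and 9.54, against 9.97 to 11.38 elsewhere, a difference of -0.95 ± 0.49, and was the 1 of 37 stress genes outside the range.

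Galactose genes, picked after their values were seen, lay on both sides of the range at low levels. GAL10 and its neighbour GAL7, which encode enzymes of galactose breakdown, were above it with differences of 1.03 ± 0.45 and 0.54 ± 0.27. GAL1, the galactokinase gene beside GAL10, was inside the range with a difference of 1.02 ± 0.88. GAL2, the galactose permease gene, was below it, at 5.43 and 6.15 in cdc34-3 at 35 °C and 25 °C against 6.45 to 7.65 elsewhere, a difference of -1.30 ± 0.34. GAL7 cleared the range by 0.004 and was inside it under both rescalings.

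The widest gap of any gene belonged to YJL136W-A, also picked after its values were seen. This small open reading frame stood at 5.45 and 5.60 in cdc34-3 at 35 °C and 25 °C, against a lowest value of 6.63, a median of 6.92 and a highest of 7.73 elsewhere. Its difference was -1.53 ± 0.21. Its neighbours GLG2 and RPS21B were inside the range, with differences of -0.24 and 0.005.

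VTH1 had the largest difference of the genes below the range, -4.10 ± 2.77. The gene encodes a relative of the vacuolar sorting receptor Vps10 and has a near-identical copy, VTH2, so its probe set may measure both. VTH1 stood at 3.39 at 35 °C and 3.17 at 25 °C in cdc34-3. At 35 °C and 25 °C it stood at 3.87 and 5.46 in cdc4-3 and at 4.93 and 4.22 in skp1-25. It stood at 10.02 and 9.43 in cdc53-1 and at 10.61 and 10.52 in skp1-11. The cdc34-3 values thus lay beside those of 2 strains and far below those of the other 2.

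The largest positive differences of all genes lay inside the range, because cdc34-3 shared them with skp1-11. They belong to BAR1, the gene of a secreted protease that cleaves alpha factor, and to the genes on either side of it on chromosome IX. SNL1, a gene for a nuclear envelope protein that binds Hsp70, stood at 10.68 at 35 °C and 11.67 at 25 °C in cdc34-3 and at 10.09 and 11.23 in skp1-11. In cdc53-1, cdc4-3 and skp1-25 its arrays ran from 1.98 to 3.54. BAR1 itself stood at 11.67 and 12.11 in cdc34-3 and at 11.65 and 12.01 in skp1-11, with 7.26 to 7.91 in the other 3 strains. BAR1 is also on the a-specific list. Relative to the mean of the 4 strains other than cdc34-3, that list's median was -3.35 in cdc53-1. It was 1.26 in cdc4-3, 1.37 in skp1-11 and 1.10 in skp1-25.

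YIL014C-A, on the other side of BAR1, stood at 10.64 and 9.48 in cdc34-3 and at 9.86 and 8.61 in skp1-11, with 3.81 to 4.64 in the other 3 strains. VID28, the next gene beyond SNL1, ran the other way, with 9.78 and 10.60 in cdc34-3 and 10.17 and 10.23 in skp1-11, against 11.29 to 11.48 in the other 3. MNT3 and RPL2B, which lie next to this stretch, were close to equal in all strains. SNL1, YIL014C-A and VID28 were also picked after their values were seen. The differences were 6.48 ± 3.47 for SNL1, 4.60 ± 2.19 for YIL014C-A and 3.19 ± 1.81 for BAR1. Without skp1-11 they were 8.48, 5.86 and 4.23, above the range. Since skp1-11 is the strain that shares the high level, this follows from leaving it out and is no test.

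**Figure D3:**
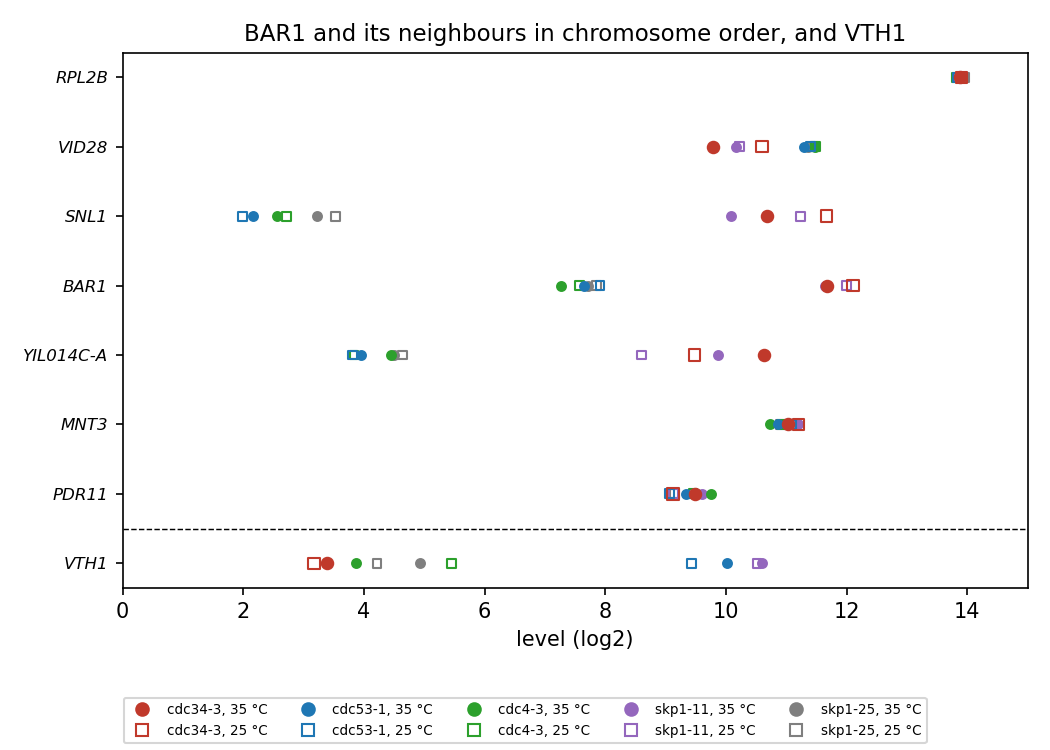
Level (x axis, log2) of BAR1, of 3 genes on each side of it in chromosome order, and of VTH1 (rows, below the dashed line) on each of the 10 arrays, filled for 35 °C and open for 25 °C. For SNL1, BAR1 and YIL014C-A, cdc34-3 (red) and skp1-11 (purple) stand at 8.61 or above and the other 3 strains at 7.91 or below, and for VTH1 cdc34-3 stands lowest.

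Gene lists were described by how many of their members lay outside the range or to either side of 0. Over all genes the median was 0.03, and 3090 of 5449 had a difference above 0. Of all genes, 2.11% lay above the range and 1.36% below it, and no list was tested against these shares. limma called 0 members in every list. Of 31 measured G1/S genes, which the factors SBF and MBF switch on before DNA replication, all 31 had a difference above 0, with a median of 0.49, and CDC21, HCM1 and PRI1 lay above the range. The list median was 0.90 at 35 °C and 0.08 at 25 °C, and at 25 °C alone 19 members were higher and 12 lower. At 35 °C the G1 cyclin gene PCL1 stood at 12.81 in cdc34-3 with a difference of 1.79, and CLN2, another, at 12.51 with one of 1.40, both picked after their values were seen. At 25 °C these differences were 0.22 and -0.25.

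The other strains were not alike in G1/S genes. Relative to the mean of the 4, the list median was -0.44 in cdc53-1, 0.14 in cdc4-3, 0.20 in skp1-11 and 0.11 in skp1-25. Without cdc53-1, the median for cdc34-3 was 0.34 and all 31 differences were still above 0. POL1, the catalytic subunit gene of DNA polymerase alpha, had a difference of 0.52 ± 0.22 and MNN1, a mannosyltransferase gene, one of 0.41 ± 0.16, both inside the range.

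Genes whose protein products are known substrates of Cdc34 with Cdc4 or other F-box proteins were mostly above 0, 15 of 16, with a median of 0.23. The median was 0.38 at 35 °C and 0.02 at 25 °C, and it was 0.10 without cdc53-1 and 0.40 without skp1-11. CLN3, which encodes the most upstream G1 cyclin, was the 1 below 0, at 11.19 and 10.96 in cdc34-3 against 11.08 to 11.93 elsewhere (median 11.71), a difference of -0.58 ± 0.22. CLN1, another G1 cyclin gene, stood at 12.23 at 35 °C and 10.86 at 25 °C, with a difference of 0.73 ± 0.43. All 9 histone genes measured were above 0 with a median of 0.19, which was 0.33 at 35 °C and 0.06 at 25 °C, with 6 of 9 above 0 at 25 °C. Without cdc53-1 the histone median was 0.13, with 8 of 9 above 0. HTB2 had a difference of 0.56 ± 0.45. Neither list had a member outside the range.

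Sulfur amino acid genes, which the SCF controls through the F-box protein Met30, were above 0 in 31 of 34, with a median of 0.30 (0.45 at 35 °C and 0.24 at 25 °C). The median was 0.33 without cdc53-1. The high level was not particular to cdc34-3. Relative to the mean of the 4, the list median was 0.28 in skp1-11 and 0.11 in cdc53-1. It was -0.22 in cdc4-3 and -0.23 in skp1-25. JLP1, which releases sulfite from sulfonates, stood at 13.65 and 11.57 in cdc34-3 at 35 °C and 25 °C, against 7.45 to 12.76 elsewhere (median 10.69). Its difference was 2.48 ± 0.92, or 5.56-fold. JLP1 was picked from the 34 genes by its moderated statistic, so this difference is no test. SUL1, a sulfate permease gene, stood at 13.10 and 11.60, against 8.54 to 13.01 elsewhere (median 9.87), a difference of 2.09 ± 0.85. For both genes the 35 °C array of cdc34-3 lay above all 8 other arrays and the 25 °C array lay among them, and 0 members of the list were outside the range. MET30 itself had a difference of 0.32 ± 0.18.

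Heat shock chaperone genes were below 0 in 24 of 27 with a median of -0.10, which was -0.25 at 35 °C and 0.06 at 25 °C, and -0.15 without cdc53-1. HSP30, a plasma membrane heat shock gene, stood at 8.76 and 8.26 in cdc34-3 at 35 °C and 25 °C, against 8.11 to 10.86 elsewhere (median 9.33), a difference of -0.94 ± 0.39. MDJ1, a mitochondrial chaperone gene, had a difference of -0.42 ± 0.23. Relative to the mean of the 4, the chaperone median was lower still in cdc53-1, at -0.14. It was 0.05 in cdc4-3, 0.09 in skp1-11 and -0.02 in skp1-25. Ribosome biogenesis genes were below 0 in 36 of 45 with a median of -0.09. Without skp1-25 these were 30 of 45 and -0.05, and after quantile normalization 43 of 45 and -0.14. As deposited, the median was 0.03 at 35 °C and -0.24 at 25 °C, the opposite order from the chaperones. Relative to the mean of the 4, the ribosome biogenesis median was -0.12 in cdc53-1, -0.001 in cdc4-3, -0.005 in skp1-11 and 0.14 in skp1-25. UTP4, which acts in ribosomal RNA processing, had a difference of -0.28 ± 0.13. Neither list had a member outside the range.

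Ergosterol genes were above 0 in 19 of 24 with a median of 0.09. Of the 24, 3 were above the range by small margins, against 2.11% of all genes. After quantile normalization 15 of 24 were above 0 with a median of 0.03. ERG20, which makes farnesyl diphosphate, had a difference of 0.20 ± 0.13, ERG6 one of 0.15 ± 0.13 and ERG13 one of 0.11 ± 0.13, and ERG6 and ERG13 were inside the range under both rescalings. Nitrogen catabolite genes were above 0 in 23 of 27 with a median of 0.12 (21 and 0.08 after quantile normalization). OPT2 of this list was above the range, and the urea permease gene DUR3 stood at 9.41 and 10.09 in cdc34-3 against 6.86 to 9.55 elsewhere, inside the range at 35 °C. The 122 ribosomal protein genes had 64 differences above 0 and 58 below with a median of 0.00. RPS28B and RPL21A were the 2 of 122 below the range, against 1.36% of all genes. RPL21A was inside the range under both rescalings and in its further probe set. Quantile normalization put 111 of the 122 below 0.

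**Figure D4:**
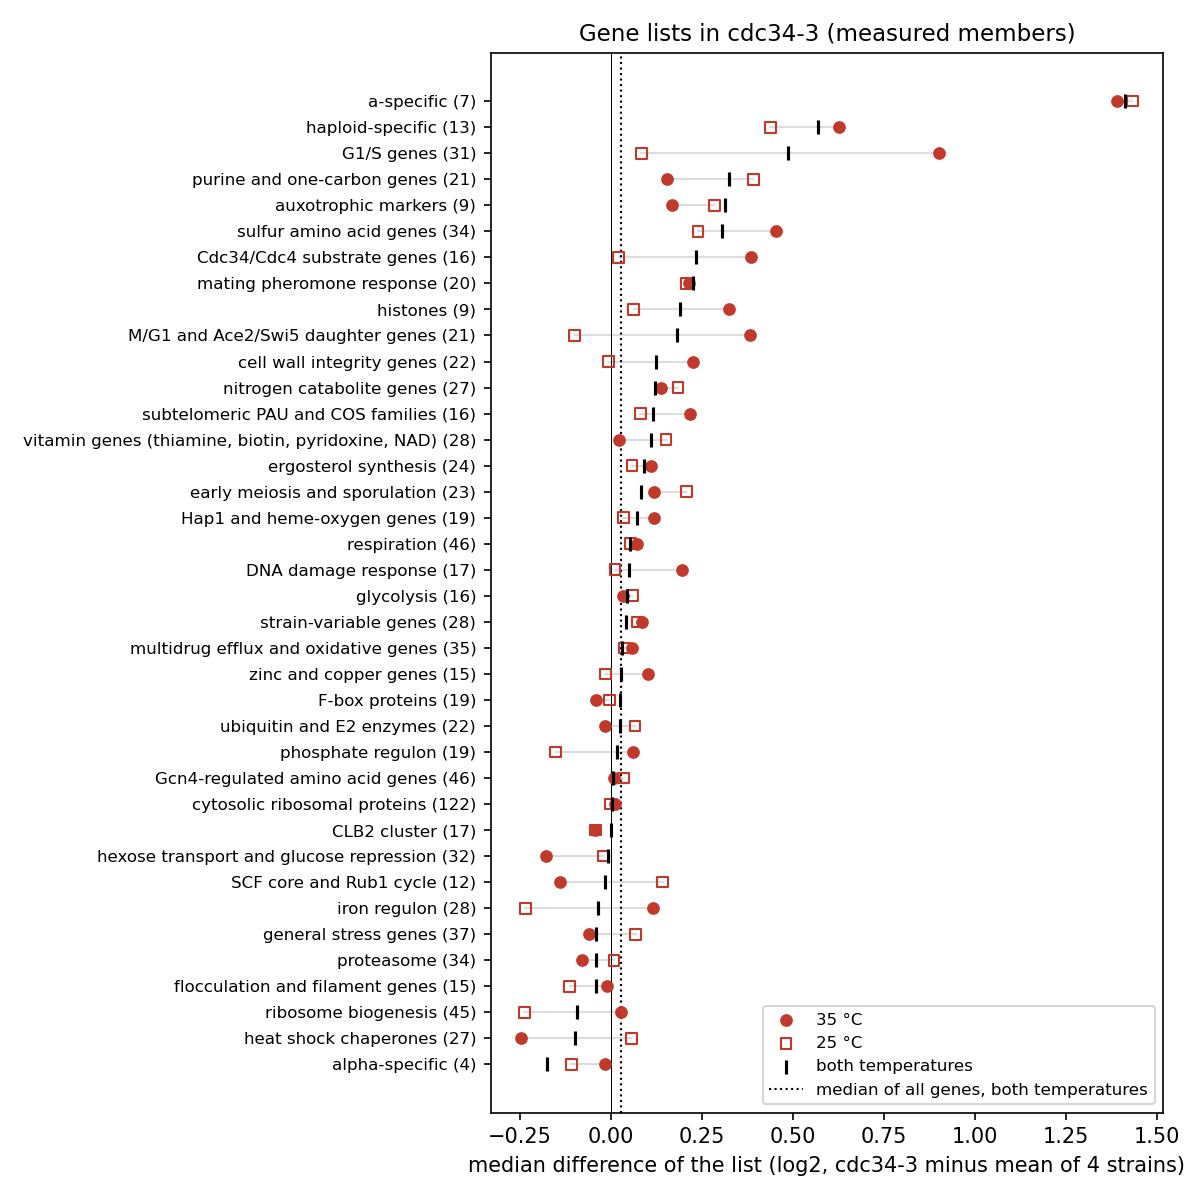
Median difference in level (x axis, log2, cdc34-3 minus the mean of the 4 other strains) for 38 gene lists (rows, with the number of measured genes), at 35 °C (filled), at 25 °C (open) and over both (bar), beside the median of all genes (dotted line, 0.03). The G1/S list has the widest distance between the temperatures, 0.90 against 0.08, while the a-specific median of 1.41 is 0.19 without cdc53-1.

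The a-specific list, 7 genes, had a median of 1.41, and the haploid-specific list, 13 genes, one of 0.57. Both lists stood low in cdc53-1, and without that strain the medians were 0.19 and -0.08. The gene HO, for the mating-type endonuclease, stood at 11.88 and 10.89 in cdc34-3, against 4.55 to 11.60 elsewhere. Among marker genes that laboratory strains often lack, ADE2 stood at 12.86 and 12.74 in cdc34-3, against 9.69 to 12.95 elsewhere, and 0 of 9 measured markers were outside the range.

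Both temperatures were then set side by side. At 35 °C the cdc34-3 array was above the 4 other arrays for 1052 genes and below them for 743. At 25 °C it was above for 1248 and below for 811. The same side was taken at both temperatures by 398 genes above and 201 below, and opposite sides by 215. Among the 189 genes outside the whole range, the difference was larger in size at 35 °C for 132 and at 25 °C for 57, and the median change between the temperatures was 0.15. HCM1, CIN2 and IML2 were among the 18 for which the 2 differences were over 0.5 apart. IML2, for example, had a difference of -1.22 at 35 °C and -0.37 at 25 °C, whereas SLM5, DIP5 and UNG1 differed by similar amounts at both.

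**Figure D5:**
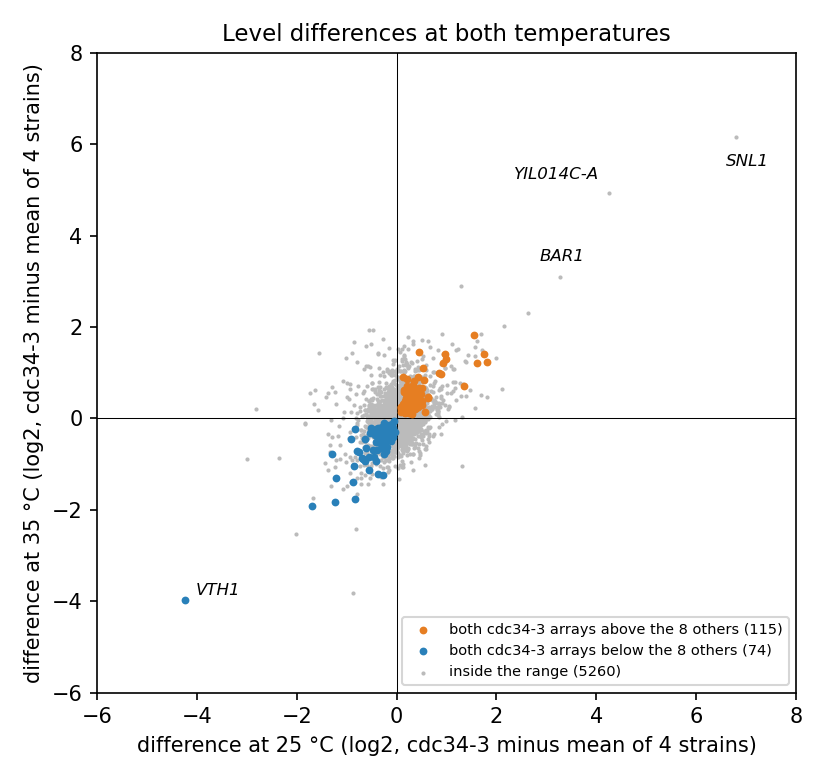
Difference in level (log2, cdc34-3 minus the mean of the 4 other strains) at 35 °C (y axis) and at 25 °C (x axis) for each of 5449 genes. The 115 genes above the range (orange) and 74 below it (blue) lie in the upper right and lower left, while SNL1, BAR1 and YIL014C-A have the largest positive differences inside the range.

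The genes outside the range were spread over all chromosomes. Median differences per chromosome ran from -0.05 on III to 0.06 on I, and the share of genes outside the range from 1.71% on VI to 5.75% on VIII. Among pairs of measured neighbours both outside the range, 5 lay on the same side (ABF2 and TVP18, EGH1 and PRI1, GAL10 and GAL7, OCA2 and YNL058C, TSC10 and YPT10) and 5 on opposite sides. Of the genes outside the range, NHP6B and RPL21A had a further probe set, and in both the further probe set was inside the range, so these 2 genes are uncertain. Both were also inside the range under both rescalings, as was TVP18.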

How the data were processed

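Expression was measured once per strain and temperature in 5 strains, 10 arrays in all. The authors' deposited table holds log2 values, a base inferred from their range. Per the labels' protocols, biotin-labelled cRNA was hybridised to Affymetrix arrays. How probes were summarised, corrected for background and normalized is not given in the sources used here. Of 5716 probe sets, 5498 had 1 gene symbol in the platform annotation, 0 several and 218 none. A RefSeq gene table (assembly R64) updated 12 symbols, and its gene order gave the neighbours. For 47 genes with several probe sets the one with the highest mean was taken, leaving 5449 genes, with no filter on low values.

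Each strain's 2 arrays share allele and background and were averaged, which holds temperature as a block. limma 3.58.1 (R 4.3.3; lmFit, eBayes) compared cdc34-3 with the 4 other strain means, two-sided, with Benjamini-Hochberg adjustment over all genes at 0.05. Ranges, lists and chromosomes were described without tests. Depth does not apply to arrays, and their number limits the precision. The fit was tested on simulated data. Named genes are the 15 largest differences each way among genes outside the range whose higher mean exceeded the median gene, up to 4 members per list by moderated statistic with any member outside the range, SCF, mating-type and marker genes, neighbours of named genes, and genes just inside or outside the range. The genes and the 39 lists, of which 38 had measured members, were chosen with earlier results of these data known. Alternatives covered the model, scaling, dim genes, probe sets, single strains, single temperatures and the range rule.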

Additional observations from a re-analysis of the deposited data

Results flagged for a closer look

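For 50 genes singled out in the results, the 4 strain means other than cdc34-3 were checked for a lone strain, whose gap to the nearest other mean took more of their whole range than Dixon's critical value allows. Chance flags about 1 in 20 groups, but these genes were singled out with their values known, so the number flagged, 6 of 50, cannot be read against that rate. In 4 of these, genes around BAR1, the lone strain was skp1-11. The share of the range taken by the gap was 0.848 for SNL1, where skp1-11 averaged 10.66 and the others 2.07 to 3.38. It was 0.916 for BAR1 (11.83 in skp1-11, 7.41 to 7.79 in the others), 0.871 for YIL014C-A (9.23, and 3.88 to 4.58) and 0.895 for VID28 (10.20, and 11.34 to 11.48). The 4 are neighbours, so these flags are not independent.

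In the other 2 genes cdc4-3 lay apart. YJL136W-A averaged 6.75 in cdc4-3 and 7.13 to 7.19 in the others, a share of 0.880, and UBC12 averaged 9.26 in cdc4-3 and 9.38 to 9.39 in the others, a share of 0.908. By the range rule that picked YJL136W-A, both of its cdc34-3 arrays lie below the cdc4-3 arrays.

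Among the 218 probe sets with no gene name, which were not used in the comparisons, 5 lay above and 6 below the range of the 8 other arrays in both cdc34-3 arrays.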

How the results depend on the processing

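No alternative that gives a test called a gene, so the count of 0 held in all of them, with 42 to 253 genes at an unadjusted p under 0.05 and the smallest adjusted p 0.0790, without skp1-11. That adjusted p was reached by BAR1 and YIL014C-A once the strain that shares their high level was left out, so it is no test of them. The counts outside the range moved more. Leaving out 1 strain raised them to between 180 and 247 above and between 92 and 176 below, since fewer arrays make a narrower range. With same-temperature arrays as the range, 398 genes were above and 201 below. At 35 °C alone the counts were 1052 and 743, and at 25 °C alone 1248 and 811. A gap of at least 0.5 left 1 and 1, and a gap of at least 1 left 0 and 1. Leaving out the dimmest 25% of genes gave 82 above and 48 below. Median centring gave 125 and 85 and kept 139 of the 189 genes and 26 of the 30 named first. Quantile normalization gave 92 and 93 and kept 119 of the 189 and 27 of the 30. Among values recomputed for named genes, 39 moved by more than the spread between strains and 601 did not, and among list medians 42 moved and 450 did not. The labels carry no replicate numbers that run across strains. The 2 arrays of a strain were kept together by averaging them, or with strain as a random block, which also called 0 genes. Signal over background is not in the table, so how far the dim genes, such as VTH1, FMT1 and YJL136W-A, are from background is unknown.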
